A study of Homo sapiens with 10 samples.

Results

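The established human lung cancer cell lines A549 and H460 were compared in untreated 2D culture, at the level of RNA. The libraries were chosen by their labels, as every library of either line grown 2-dimensionally without a drug: 1 from A549 and 3 from H460, 4 of the 10 RNA sequencing libraries of the series. The other 6 came from H460 cells that had survived cisplatin (CR), paclitaxel (PR) or doxorubicin (DR), and from tumor spheroid (TS) cells of H460 and A549, with 1 TS library for each line, whose titles read CTC, for circulating tumor cells, where the culture given is that of spheres. The study used these libraries to look at drug-surviving and sphere-forming cells, and the comparison here asks how the untreated lines differed at baseline. Both lines came from the same cell bank, neither was given a transgene or a deletion according to the labels, and both 2D groups were grown attached in RPMI medium with fetal bovine serum and penicillin/streptomycin. TS cells, which serve here only to show the same lines in another culture, were grown unattached in RPMI medium with B27 supplement, EGF and basic FGF.

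A549 is an adenocarcinoma line and H460 is usually classed as a large cell carcinoma line. Both carry altered STK11 and KEAP1 and both have lost CDKN2A, while SMARCA4, the ATPase of SWI/SNF chromatin remodelers, is mutated in A549. KEAP1 normally holds back NRF2, a factor that switches on genes for glutathione synthesis and for the removal of quinones, aldehydes and peroxides.

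Expression was read as deposited counts for testing and as FPKM (fragments per kilobase of transcript, scaled to library depth) for levels. The total count was 64454873 in the A549 library and 73644667, 65670034 and 73459930 in H460 replicates 1, 2 and 3. A count above 0 was found for 21880 genes in A549 and for 21036, 21132 and 21603 genes in H460. The test was run on 13058 genes with at least 1 FPKM and 10 counts in at least 1 of the 4 libraries. Below, FPKM values are given for H460 replicates 1, 2 and 3 in this order and then for A549.

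The libraries of each line stood apart from those of the other. Between H460 replicates, 348 (2.67%), 545 (4.17%) and 788 (6.03%) of the tested genes were more than 2-fold apart on the log2(FPKM + 1) scale. Between A549 and the H460 replicates, 2632 (20.2%), 3008 (23.0%) and 2796 (21.4%) genes were more than 2-fold apart. Across these genes, which are not independent replicates, Pearson's r was 0.962 to 0.977 between H460 replicates and 0.833 to 0.85 between A549 and H460. No pair of libraries held identical values, and the counts of the H460 replicates differed by more than sampling noise.

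With edgeR's quasi-likelihood test and Benjamini-Hochberg adjustment, 2164 of the 13058 genes tested (16.6%) had an adjusted p under 0.05 and were more than 2-fold apart, and these are called DEGs. Of these, 1251 (9.58% of the genes tested) were higher in A549 and 913 (6.99%) were higher in H460. In all 2164 DEGs the A549 value lay outside the range of the 3 H460 libraries, so each direction given below was shown by A549 against 3 of 3 H460 libraries. The median log2 fold change over all genes tested was -0.04. Many DEGs were close to on or off between the lines: 130 of those higher in A549 had no count in any H460 library, and 114 of those higher in H460 had no count in A549. The filter was passed in A549 alone by 890 genes, of which 649 were DEGs, and in H460 alone by 1228, of which 527 were DEGs. These genes had to differ to be tested. Of the 10940 genes that passed it in both lines, 988 were DEGs, 602 of them higher in A549 and 386 higher in H460. The 16.6% mixes these kinds of genes, so it is not a like background for a list with many genes that passed in a single line. List genes that passed in both lines compare with the 988 of 10940. For each gene list below the same counts are given, with ranges over the 12 alternatives as the numbers of genes higher in A549 and in H460 and the median log2 fold change.

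A549 2D had a single library, so its spread was taken to be that of H460, and nothing in the labels says that the H460 replicates were separate cultures, so p-values measure only the spread between these libraries, and the replicates may be technical. In bulk RNA, fewer cells with a transcript and less transcript in each cell cannot be told apart. With limma on log2(FPKM + 1) the number of DEGs was 1408, with 67.9% of them higher in A549 against 57.8% by edgeR, and the cause was not tested. Without H460 replicate 2, whose name has another form than those of the other H460 2D libraries and of A549 2D, 1499 DEGs were found.

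CDKN2A and SMARCA4, whose state in these lines is known, are given first, with MTAP beside CDKN2A. CDKN2A is lost in both lines and cannot tell them apart, so only SMARCA4 bears on the labels. CDKN2A, the cell cycle inhibitor gene on chromosome 9 (21967752 to 21995324 in GRCh38), had no count in any of the 4 libraries, and this gene was singled out after its values were seen. MTAP, which lies beside it at 21802636 to 21941115 and encodes the phosphorylase of the methionine salvage pathway, was at 15, 12.5 and 9.8 FPKM in H460 and 1.05 FPKM in A549. All 3 H460 libraries were far above A549, and the difference was 12-fold (log2 fold change -3.59, SE 0.43, adjusted p = 0.000352 by edgeR). SMARCA4 was at 31.3, 17.2 and 28 FPKM in H460 and 2.15 FPKM in A549. It was again the A549 library that was low, with no overlap, and the difference was 12.2-fold (log2 fold change -3.61, SE 0.53, adjusted p = 0.00126 by edgeR).

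SMARCA4 and SMARCD3 were the only DEGs among the 25 tested subunits of SWI/SNF complexes, both higher in H460, which is 8% called, below the 16.6% over all genes tested, and the list's median log2 fold change was 0.09. SMARCD3, an accessory subunit, was at 10.1, 11.7 and 9.43 FPKM in H460 and 3.78 FPKM in A549, a call that was lost without H460 replicate 2 (adjusted p = 0.126 by edgeR), in limma and with no filter. In these fits the list had 1 DEG, and without replicate 2 its median was -0.07. All 25 passed the filter in both lines (range over the alternatives 0 and 1 to 2, median -0.07 to 0.15; with 1 H460 replicate left out 0 and 1 to 2, median -0.07 to 0.15). The actin subunit gene ACTB was at 1997, 1356 and 1629.8 FPKM in H460 and 3059.6 FPKM in A549, which did not pass the test (adjusted p = 0.214 by edgeR).

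Surfactant genes and NKX2-1 were at or near 0 in both lines, while other genes of the surfactant and alveolar list were present. SFTPA1 and SFTPB, which encode surfactant proteins of alveolar type 2 cells, had no count in any of the 4 libraries, and SFTPC had counts in H460 replicate 2 alone, at 0.0917 FPKM. NKX2-1, the lung and thyroid lineage factor, was at 0.015, 0 and 0 FPKM in H460 and 0.0121 FPKM in A549. ABCA3, the lipid transporter of lamellar bodies, was at 2.31, 3.36 and 7.46 FPKM in H460 and 5.67 FPKM in A549, and LPCAT1, which makes surfactant lipid, at 39.5, 34.3 and 24.2 FPKM in H460 and 29.3 FPKM in A549, and neither was called. Of the 6 tested genes of the surfactant and alveolar list, HOPX alone was a DEG, which is 16.7%, near the 16.6% over all genes tested. The median log2 fold change was 0.03, or -0.11 without H460 replicate 1, -0.04 without replicate 2, -0.11 with a filter on the mean FPKM and -0.03 with the spread of all 10 libraries. Of the 6 tested, 2 passed the filter in 1 line alone, and 0 of the 4 that passed it in both lines were called (range over the alternatives 0 and 1, median -0.11 to 0.35; with 1 H460 replicate left out 0 and 1, median -0.11 to 0.35). HOPX, a homeodomain protein of alveolar type 1 cells, was at 21.1, 47.7 and 25.6 FPKM in H460 and had no count in A549. The H460 libraries were all high, and HOPX was at least 988-fold higher in H460 (adjusted p = 4.59e-05 by edgeR), where "at least" sets a count of 0 at a floor of 3 counts, over the A549 library or over the 3 H460 libraries together. Floors and intervals here cover counting error only, since reads copied by PCR are not independent molecules, and genes with 1 count were fewer than genes with 2 counts in each library (729 against 1021 in A549).

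The neuroendocrine factors INSM1 and NEUROD1 were also near 0. NEUROD1 had no count in either line, and INSM1 was at 0, 0.00886 and 0.0069 FPKM in H460 with no count in A549. Of 22 markers of fibroblasts, endothelium and blood cells, 12, 11 and 12 had no count in the H460 libraries and 13 had none in A549. Their summed level was 37.0, 53.1 and 60.4 FPKM in H460 and 26.1 FPKM in A549, with CD68 as the most abundant marker in H460 replicate 1 and in A549 and COL3A1 in H460 replicates 2 and 3. PTPRC, CD3E, PECAM1, CDH5 and COL1A2, which define leukocytes, endothelium and fibroblasts, had no count in any of the 4 libraries. Of the 7 markers tested, COL1A1 was higher in A549, COL3A1, LUM and PDGFRB were higher in H460 and 3 were not called (57.1% called against 16.6%, median log2 fold change -2.94), and their part in any result was not tested. Limma called 1 in each direction, and 0 and 2 of 6 were called with a filter on the mean FPKM. The COL3A1 call was lost with both cultures in 1 fit (log2 fold change -0.60), and LUM was called in only 4 of the 12 alternatives. Of the 7 tested, 4 passed the filter in 1 line alone, and 1 of the 3 that passed it in both lines was called (range over the alternatives 0 to 1 and 1 to 4, median -3.41 to -0.70; with 1 H460 replicate left out 1 and 2 to 4, median -3.18 to -2.33).

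The genes furthest apart were then taken at both ends, among genes at a mean of 10 FPKM or more in the higher line. TBXT (Gene ID 6862), the T-box factor brachyury that specifies mesoderm, was at 324, 593 and 645 FPKM in H460 and had no count in A549. The H460 libraries differed among themselves by less than their distance from A549, and TBXT was at least 31022-fold higher in H460 (adjusted p = 1.91e-05 by edgeR). EPB41L3, a membrane skeleton protein, was at 140.3, 189 and 167 FPKM in H460 and 0 in A549, at least 16271-fold higher in H460. The long noncoding RNA LINC00824 was at 209, 217 and 185 FPKM in H460 and 0 in A549, at least 11362-fold higher in H460. Both were even across the 3 H460 libraries. SERPINB2, an inhibitor of the plasminogen activator urokinase, was at 150.1, 286 and 264 FPKM in H460 and 0 in A549, at least 11116-fold higher in H460. The remaining genes at this end included the cadherin CDH13, the ephrin receptor EPHA3, the endothelial proteins ENG and ESM1, the EGF receptor ligand EPGN, the nucleotide transporter SLC17A9 and the matrix protein EGFLAM. These 7 genes ranged from 8.54 FPKM (EPHA3, replicate 2) to 33.4 FPKM (EPGN, replicate 1) in the H460 libraries, and none had a count in A549.

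At the A549 end, CYP24A1 (Gene ID 1591), the mitochondrial enzyme that inactivates vitamin D hormone, was at 174 FPKM in A549 and had no count in any H460 library. It was at least 47254-fold higher in A549 (adjusted p = 6.46e-06 by edgeR). UPK1B, a tetraspanin of the urothelial surface, was at 75.4 FPKM in A549 and 0 in H460, at least 12647-fold higher in A549. HAVCR1, a phosphatidylserine receptor known from injured kidney tubule, was at 50.4 FPKM in A549 and 0 in H460, at least 9645-fold higher in A549. All 3 were on in the A549 library and off in each H460 library. GABRA5, which encodes a subunit of GABA type A receptors, was at 24.1 FPKM in A549 and at 0 in H460. The intermediate filament gene INA and the neurite outgrowth gene GPRIN2 were at 16.4 and 10.3 FPKM in A549, the inflammasome component NLRP2 at 17 FPKM, the organic cation transporter SLC22A3 at 13.1 FPKM, the focal adhesion protein TNS4 at 13.1 FPKM and the tetraspanin-like TM4SF4 at 26.4 FPKM, each with no count in H460. KRT87P and UGT1A9 belong to families with near-identical members, so that their reads may be shared, and were at 186 and 24.6 FPKM in A549 against 0 in H460.

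**Figure D1:**
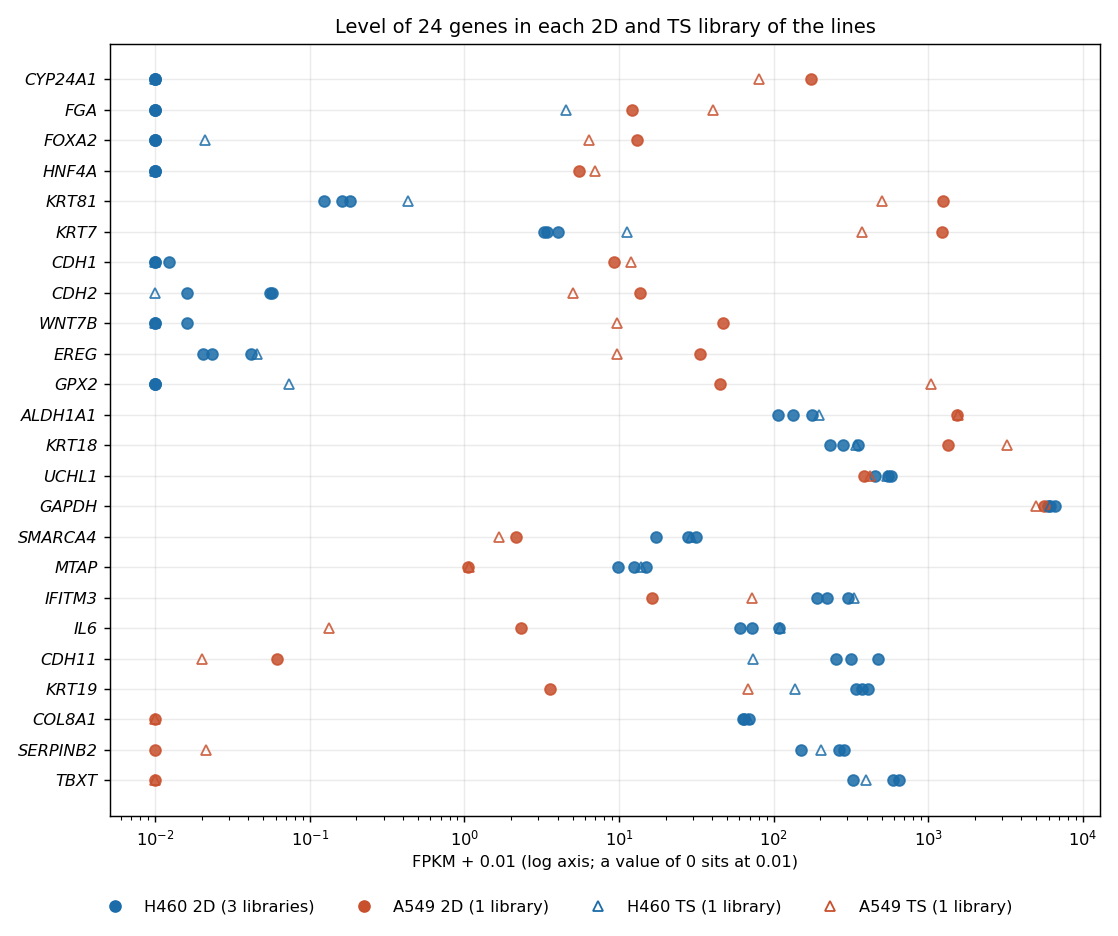
Level of 24 genes (FPKM + 0.01, log axis) in each 2D library (filled circles; blue, 3 from H460; red, 1 from A549) and each TS library (open triangles, 1 per line). CYP24A1 and HNF4A sit at 0 in H460 2D and at 174 and 5.51 FPKM in A549 2D, TBXT and COL8A1 sit at 0 in A549, and GAPDH lies at 5639 to 6646 FPKM across the 2D libraries.

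A549 expressed secreted proteins that are made mainly by the liver. Of 34 such genes and acute phase genes, 14 were tested, and 10 were higher in A549, 2 were higher in H460 and 2 were not called (85.7% called against 16.6%, median log2 fold change 4.71 against -0.04 over all genes tested). Among the 14, 10 passed the filter in 1 line alone, so 16.6% is not a like background for this list. Of the 4 that passed it in both lines, 3 were called (range over the alternatives 7 to 18 and 1 to 2, median 2.51 to 7.23; with 1 H460 replicate left out 9 to 11 and 2, median 4.43 to 5.28). FGA, the fibrinogen alpha chain (Gene ID 2243), was at 12.1 FPKM in A549 and had no count in any H460 library, at least 2309.7-fold higher in A549 (adjusted p = 2.49e-05 by edgeR). FGB, the beta chain, was at 0.0201, 0.00744 and 0.027 FPKM in H460 and 9.14 FPKM in A549. Its H460 values were all close to 0, and it was 438-fold higher in A549 (log2 fold change 8.78, SE 0.55, adjusted p = 1.43e-05 by edgeR). APOC1, an apolipoprotein of triglyceride-rich particles, was at 0.941, 1.11 and 0.82 FPKM in H460 and 43.8 FPKM in A549, 46.7-fold higher in A549. Complement C5 was at 0, 0.0446 and 0.016 FPKM in H460 and 13.9 FPKM in A549, 636-fold higher in A549. APOH and prothrombin (F2) were lower, at 3.07 and 1.22 FPKM in A549 with no count in H460. Of the 2 genes higher in H460, SERPIND1, the thrombin inhibitor heparin cofactor 2, was at 10.6, 21.1 and 17 FPKM in H460 with no count in A549. With both cultures in 1 fit, 18 and 1 of 23 tested list genes were called higher in A549 and in H460.

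Of the transcription factors of liver and foregut that were called, most were on in A549 and at or near 0 in H460. HNF4A was at 5.51 FPKM in A549 and had no count in H460, at least 2712-fold higher in A549 (adjusted p = 2.12e-05 by edgeR). FOXA2, a pioneer factor of the foregut, was at 13.1 FPKM in A549 and 0 in H460, at least 2730-fold higher in A549. The nuclear receptor NR5A2 was at 4.66 FPKM in A549 and 0 in H460, and the endoderm factor GATA4 was at 0, 0.00703 and 0.0149 FPKM in H460 and 1.23 FPKM in A549. Of the 12 tested genes of this list, 6 were higher in A549, 2 were higher in H460 and 4 were not called (66.7% called against 16.6%), with a median log2 fold change of 3.81, and 7 of the 12 passed the filter in 1 line alone. Of the 5 that passed it in both lines, 2 were called (range over the alternatives 4 to 9 and 0 to 2, median 0.81 to 5.04; with 1 H460 replicate left out 6 and 1 to 2, median 3.67 to 4.55). With a filter on the mean FPKM, 9 were tested and 4 and 1 were called.

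Of the epithelial genes called, most were higher in A549. Of 35 genes of epithelial junctions and keratins, 21 were tested, and 12 were higher in A549, 2 were higher in H460 and 7 were not called (66.7% called against 16.6%, median log2 fold change 1.79). Of the 21 tested, 10 passed the filter in 1 line alone, and 6 of the 11 that passed it in both lines were called (range over the alternatives 10 to 15 and 0 to 2, median 1.72 to 2.69; with 1 H460 replicate left out 10 to 14 and 1 to 2, median 1.74 to 2.34). CDH1, E-cadherin (Gene ID 999), was at 0, 0 and 0.0023 FPKM in H460 and 9.29 FPKM in A549. H460 gave 1 count in 3 libraries against 3355 in A549, a ratio of 11075 at equal depth with a 95% counting interval of 1986 to 437580. CLDN2, a claudin of leaky tight junctions, was at 10.5 FPKM in A549 and 0 in H460, at least 2554-fold higher in A549. ELF3, an epithelial ETS factor, was at 0.0211, 0.0245 and 0.0738 FPKM in H460 and 30.9 FPKM in A549, 692-fold higher in A549. Desmoplakin (DSP), which anchors keratins at desmosomes, was at 0.0246, 0 and 0 FPKM in H460 and 9.72 FPKM in A549, and its call was lost in DESeq2. EPCAM stayed below the filter, at 0.105, 0.114 and 0.0919 FPKM in H460 and 0.923 FPKM in A549.

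Keratins, the intermediate filament proteins of epithelia, split between the lines. KRT7 was at 3.25, 3.42 and 4.03 FPKM in H460 and 1221 FPKM in A549, 289-fold higher in A549 (log2 fold change 8.17, SE 0.38, adjusted p = 5.04e-06 by edgeR). KRT81, a hair keratin with near-identical copies, was at 0.172, 0.152 and 0.114 FPKM in H460 and 1246 FPKM in A549, 8256-fold higher in A549. KRT7 and KRT81 thus went from a few FPKM or less to over 1000 FPKM. KRT8 and KRT18, the pair of simple epithelia, were high in both lines, at 447, 398 and 379.7 and 349, 279.6 and 233 FPKM in H460 and 1446 and 1341 FPKM in A549, 3.45 and 4.6-fold higher in A549. KRT19 went the other way, at 343, 407 and 372 FPKM in H460 and 3.57 FPKM in A549. All 3 H460 libraries were above A549 by 107-fold (log2 fold change -6.74, SE 0.53, adjusted p = 3.51e-05 by edgeR). The KRT19 call was lost with both cultures in 1 fit (log2 fold change -4.08, adjusted p = 0.123 by edgeR), with 138 FPKM in H460 TS cells and 68.3 FPKM in A549 TS cells.

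Mesenchymal and EMT genes did not go to 1 line. Of the 24 tested, 10 were higher in A549, 4 were higher in H460 and 10 were not called (58.3% called against 16.6%, median log2 fold change 0.62), and limma on log2(FPKM + 1) called 8 and 1. Of the 24 tested, 5 passed the filter in 1 line alone, and 9 of the 19 that passed it in both lines were called (range over the alternatives 7 to 11 and 1 to 5, median 0.16 to 0.81; with 1 H460 replicate left out 8 to 11 and 3 to 4, median 0.41 to 0.78). Each line had its own mesenchymal cadherin. CDH11 was at 254, 318 and 473 FPKM in H460 and 0.0515 FPKM in A549, 4684-fold higher in H460 (log2 fold change -12.19, SE 0.86, adjusted p = 2.12e-05 by edgeR). CDH2, N-cadherin, was at 0.00592, 0.0465 and 0.0456 FPKM in H460 and 13.6 FPKM in A549, 378-fold higher in A549 (log2 fold change 8.56, SE 0.60, adjusted p = 2.12e-05 by edgeR). A549 thus had counts of both CDH1 and CDH2, whereas H460 had few of either. TPM2, a tropomyosin of actin cables, was at 0.943, 1.17 and 0.727 FPKM in H460 and 258 FPKM in A549, 231-fold higher in A549. SPARC, a collagen-binding matrix protein, was at 0.0109, 0.0189 and 0.0115 FPKM in H460 and 3.33 FPKM in A549, and TWIST1 was at 1.14 FPKM in A549 with no count in H460. Vimentin (VIM) was abundant in both, at 761, 887 and 964 FPKM in H460 and 597 FPKM in A549, and was not called (log2 fold change -0.64, SE 0.41, adjusted p = 0.357 by edgeR).

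Collagens and laminins likewise differed by member. Of 22 tested, 9 were higher in A549, 6 were higher in H460 and 7 were not called (68.2% called against 16.6%), with a median log2 fold change of 0.06 that was -0.59 with a filter on the mean FPKM, -0.30 without H460 replicate 2, -0.19 without replicate 1 and -0.01 with the spread of all 10 libraries. Of the 22 tested, 4 passed the filter in 1 line alone, and 11 of the 18 that passed it in both lines were called (range over the alternatives 7 to 10 and 4 to 8, median -0.59 to 0.96; with 1 H460 replicate left out 9 to 10 and 6 to 8, median -0.30 to 0.96). COL8A1, a short-chain collagen, was at 64.4, 63.4 and 69.1 FPKM in H460 and 0 in A549, at least 9058-fold higher in H460. COL5A2, a chain of fibrillar collagen V, was at 328, 425 and 516 FPKM in H460 and 29.1 FPKM in A549, 15-fold higher in H460. LAMA1, the alpha chain of embryonic laminin, was at 35.7, 23.3 and 56.4 FPKM in H460 and 0.029 FPKM in A549, 1379-fold higher in H460. The H460 libraries were all high for these 3 genes. COL5A1, the partner chain of COL5A2, went the other way, at 0.21, 0.0885 and 0.202 FPKM in H460 and 7.3 FPKM in A549, 41.7-fold higher in A549. The basement membrane collagen COL18A1 was at 0.455, 0.82 and 1.0 FPKM in H460 and 37.7 FPKM in A549, and the anchoring fibril collagen COL7A1 was at 1.03, 0.81 and 1.01 FPKM in H460 and 17.9 FPKM in A549, 46 and 18-fold higher in A549.

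Of 11 tested integrins, which bind these matrix proteins, 4 were higher in A549, 1 was higher in H460 and 6 were not called (45.5% called against 16.6%, median log2 fold change 0.78), and 7 and 1 of 13 were called with both cultures in 1 fit. Of the 11 tested, 4 passed the filter in 1 line alone, and 2 of the 7 that passed it in both lines were called (range over the alternatives 4 to 7 and 0 to 3, median 0.69 to 1.53; with 1 H460 replicate left out 4 and 1 to 3, median 0.69 to 0.98). ITGA3, the alpha chain of a laminin receptor, was at 1.5, 1.34 and 2.31 FPKM in H460 and 146 FPKM in A549, 81.9-fold higher in A549 (log2 fold change 6.36, SE 0.42, adjusted p = 1.71e-05 by edgeR). Its partner ITGB1 was at 175, 211 and 177 FPKM in H460 and 559 FPKM in A549, 2.93-fold higher in A549. ITGB4, the laminin-binding chain of hemidesmosomes, was at 0.0202, 0.0611 and 0.204 FPKM in H460 and 8.41 FPKM in A549, 74.9-fold higher in A549. ITGB3 was at 0.00688, 0.00442 and 0.00789 FPKM in H460 and 5.63 FPKM in A549, 711-fold higher in A549. All 4 chains were above every H460 library in A549. ITGB8, which binds latent TGF-beta, was at 1.07, 1.98 and 2.63 FPKM in H460 and 0.0544 FPKM in A549, and its call was lost in limma on log2(FPKM + 1).

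Among receptor tyrosine kinases and their ligands, 17 of 35 tested genes were higher in A549, 5 were higher in H460 and 13 were not called (62.9% called against 16.6%, median log2 fold change 1.47). Of the 35 tested, 17 passed the filter in 1 line alone, and 7 of the 18 that passed it in both lines were called (range over the alternatives 12 to 22 and 2 to 7, median 0.91 to 1.99; with 1 H460 replicate left out 15 to 19 and 3 to 6, median 1.20 to 1.62). EREG, epiregulin, an EGF receptor ligand, was at 0.0103, 0.0319 and 0.0132 FPKM in H460 and 33.1 FPKM in A549, 1640.5-fold higher in A549 (log2 fold change 10.68, SE 0.45, adjusted p = 5.04e-06 by edgeR). TGFA, another ligand of this receptor, was at 0.0865, 0.0352 and 0.0247 FPKM in H460 and 4.03 FPKM in A549, 74.8-fold higher in A549. EPGN, also a ligand of this receptor but not a member of the list, had no count in A549. AXL, the receptor of GAS6, was at 4.87, 4.95 and 7.33 FPKM in H460 and 75.8 FPKM in A549, 12.8-fold higher in A549. NTRK3, a neurotrophin receptor, was at 0.00608, 0.00128 and 0.0095 FPKM in H460 and 14.3 FPKM in A549, 1212-fold higher in A549. The ephrin receptor EPHB2 was at 0.0363, 0.00121 and 0.0229 FPKM in H460 and 7.26 FPKM in A549, 259-fold higher in A549. The ephrin receptor EPHA3, which is not in the list either, was seen in H460 alone. The 5 list members higher in H460 are not described here.

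Of 28 tested lung cancer driver and suppressor genes, 5 were higher in A549, 2 were higher in H460 and 21 were not called (25% called against 16.6% over all genes tested, median log2 fold change 0.28). Without H460 replicate 2 and by limma on log2(FPKM + 1), 2 and 1 were called, and limma on log2(FPKM + 0.1) called 2 and 2. Of the 28 tested, 2 passed the filter in 1 line alone, and 6 of the 26 that passed it in both lines were called (range over the alternatives 2 to 8 and 1 to 3, median 0.06 to 0.36; with 1 H460 replicate left out 2 to 8 and 1 to 2, median 0.06 to 0.36). FGFR1 was at 7.84, 8.02 and 8.61 FPKM in H460 and 47.6 FPKM in A549, 5.92-fold higher in A549 (adjusted p = 0.000324 by edgeR). MET, the receptor of hepatocyte growth factor, was at 22.8, 18.4 and 18.6 FPKM in H460 and 59.8 FPKM in A549, 3.05-fold higher in A549 (adjusted p = 0.00728 by edgeR). Both receptors were present in all 4 libraries. The transcription factor MYC was at 79.5, 48.4 and 72.1 FPKM in H460 and 33.9 FPKM in A549 and was not called (log2 fold change -1.02, SE 0.43, adjusted p = 0.16 by edgeR).

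In the TGF-beta, BMP and WNT list, 14 of 33 tested genes were higher in A549, 4 were higher in H460 and 15 were not called (54.5% called against 16.6%, median log2 fold change 1.07). Of the 33 tested, 14 passed the filter in 1 line alone, and 7 of the 19 that passed it in both lines were called (range over the alternatives 10 to 18 and 2 to 7, median 0.88 to 1.37; with 1 H460 replicate left out 12 to 18 and 3 to 5, median 0.92 to 1.37). WNT7B, a WNT ligand, was at 0.00602, 0 and 0 FPKM in H460 and 47 FPKM in A549. H460 gave 2 counts against 13923 in A549, a ratio of 22981 at equal depth (95% counting interval 6361 to 189780). INHBB, the beta B chain of activin, was at 0.00639, 0 and 0 FPKM in H460 and 32.1 FPKM in A549, a ratio of 12780 (95% counting interval 3537 to 105550). SFRP1, a secreted WNT antagonist, was at 17.7 FPKM in A549 and 0 in H460, at least 6519-fold higher in A549. The WNT receptor ligase RNF43 was at 1.49 FPKM in A549 with no count in H460, and the BMP receptor BMPR1B was at 0.0178, 0.00481 and 0.0101 FPKM in H460 and 2.76 FPKM in A549.

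Of 16 tested Notch genes, 6 were higher in A549, 2 were higher in H460 and 8 were not called (50% called against 16.6%, median log2 fold change 0.68). Without H460 replicate 2, 1 and 2 were called, limma called 2 and 0 on log2(FPKM + 1) and 3 and 0 on log2(FPKM + 0.1), and 4 and 1 were called with no filter (of 22) and with both cultures in 1 fit. Of the 16 tested, 4 passed the filter in 1 line alone, and 5 of the 12 that passed it in both lines were called (range over the alternatives 1 to 7 and 0 to 3, median 0.35 to 1.17; with 1 H460 replicate left out 1 to 7 and 2, median 0.46 to 1.17). JAG1, a Notch ligand, was at 10.1, 5.18 and 6.3 FPKM in H460 and 40.1 FPKM in A549, 5.45-fold higher in A549 (adjusted p = 0.0017 by edgeR). JAG1 was above every H460 library in A549 and was called in each alternative. NOTCH3 was at 47.8, 31.4 and 144 FPKM in H460 and 7.24 FPKM in A549. It was called higher in H460 and lost this call in DESeq2, in limma and with no filter.

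Of 33 tested targets of NRF2, 5 were higher in A549, 2 were higher in H460 and 26 were not called, which is 21.2% called against 16.6% over all genes tested, with a median log2 fold change of 0.20, and limma on log2(FPKM + 1) called 2 and 2. Of the 33 tested, 1 passed the filter in 1 line alone, and 6 of the 32 that passed it in both lines were called (range over the alternatives 2 to 6 and 0 to 2, median 0.12 to 0.31; with 1 H460 replicate left out 4 to 6 and 2, median 0.12 to 0.31). GPX2, a glutathione peroxidase of the gut, was at 44.8 FPKM in A549 and had no count in H460, at least 3468-fold higher in A549 (adjusted p = 1.71e-05 by edgeR). GCLC, which catalyzes the first step of glutathione synthesis, was at 16.8, 14.8 and 13.9 FPKM in H460 and 49.9 FPKM in A549, 3.22-fold higher in A549. AKR1C1 and AKR1C2, near-identical aldo-keto reductases whose reads may be shared, went opposite ways. AKR1C2 was at 122, 136 and 101 FPKM in H460 and 343 FPKM in A549 and was called higher in A549, which was lost in limma on log2(FPKM + 1). AKR1C1 was at 122, 167 and 121 FPKM in H460 and 35.8 FPKM in A549 and was called higher in H460, which was lost with both cultures in 1 fit. The ferritin heavy chain FTH1 was at 1905, 1611 and 1734 FPKM in H460 and 3055 FPKM in A549 and was not called (log2 fold change 0.77, SE 0.38, adjusted p = 0.222 by edgeR).

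Aldehyde dehydrogenases and retinoid genes had 8 of 21 tested genes higher in A549, 1 higher in H460 and 12 not called (42.9% called against 16.6%, median log2 fold change 0.73), and 5 and 0 called by limma on log2(FPKM + 0.1). Of the 21 tested, 4 passed the filter in 1 line alone, and 5 of the 17 that passed it in both lines were called (range over the alternatives 5 to 8 and 0 to 2, median 0.66 to 0.81; with 1 H460 replicate left out 5 to 8 and 1, median 0.66 to 0.81). ALDH1A1, which makes retinoic acid, was at 106, 176 and 134 FPKM in H460 and 1529 FPKM in A549. It was high in all 4 libraries and 10.8-fold higher in A549 (log2 fold change 3.43, SE 0.37, adjusted p = 0.000187 by edgeR). ALDH1A3, a second enzyme of this step, was at 0.189, 0.40 and 0.264 FPKM in H460 and 5.86 FPKM in A549, 20.1-fold higher in A549. ALDH2, the mitochondrial enzyme that clears acetaldehyde, was at 0.188, 0.108 and 0.163 FPKM in H460 and 6.56 FPKM in A549, 41.1-fold higher in A549. STRA6, the receptor for retinol uptake, was at 0.153, 0.135 and 0.285 FPKM in H460 and 5.89 FPKM in A549, 27.7-fold higher in A549.

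Cytochrome P450, glucuronosyl and glutathione transferase genes went both ways, with 5 of 24 tested genes higher in A549, 8 higher in H460 and 11 not called (54.2% called against 16.6%, median log2 fold change -0.70). Of the 24 tested, 11 passed the filter in 1 line alone, and 4 of the 13 that passed it in both lines were called (range over the alternatives 2 to 10 and 7 to 9, median -0.92 to -0.03; with 1 H460 replicate left out 5 and 8 to 9, median -0.68 to -0.58). Besides CYP24A1, the arachidonic acid oxidase CYP2S1 was at 0.36, 0.228 and 0.502 FPKM in H460 and 13.2 FPKM in A549, 34.4-fold higher in A549, and CYP4F3, which inactivates leukotriene B4, was at 0.0803, 0.0386 and 0.0805 FPKM in H460 and 2.72 FPKM in A549. GSTM1, a glutathione transferase with near-identical copies, was at 47, 49.1 and 46.9 FPKM in H460 and 0.361 FPKM in A549, 128-fold higher in H460 (adjusted p = 2.42e-05 by edgeR). The H460 libraries were nearly equal for GSTM1. UGT8, the ceramide galactosyltransferase of myelin lipids, was at 6.62, 6.36 and 4.53 FPKM in H460 and 0.00827 FPKM in A549, 296-fold higher in H460. GSTP1, the main glutathione transferase of lung, was at 529, 625 and 494 FPKM in H460 and 651 FPKM in A549 and was not called (adjusted p = 0.736 by edgeR).

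Of 16 tested ABC transporters, 2 were higher in A549, 4 were higher in H460 and 10 were not called (37.5% called against 16.6% over all genes tested, median log2 fold change -0.63), and limma on log2(FPKM + 1) called 1 and 1. Of the 16 tested, 3 passed the filter in 1 line alone, and 3 of the 13 that passed it in both lines were called (range over the alternatives 1 to 3 and 1 to 4, median -0.76 to -0.21; with 1 H460 replicate left out 1 to 3 and 3 to 4, median -0.76 to -0.21). ABCA1, the cholesterol exporter, was at 0.185, 0.12 and 0.235 FPKM in H460 and 4.26 FPKM in A549, 21.3-fold higher in A549 (adjusted p = 0.000105 by edgeR). ABCB10, a mitochondrial transporter, was at 25.1, 23.8 and 21.7 FPKM in H460 and 6.57 FPKM in A549, 3.69-fold higher in H460 (adjusted p = 0.00549 by edgeR). The glutathione conjugate exporter ABCC1 was at 22.4, 9.76 and 24 FPKM in H460 and 49.2 FPKM in A549 and was not called (log2 fold change 1.34, SE 0.49, adjusted p = 0.105 by edgeR).

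Cytokine genes separated the lines by member, with 7 of 19 tested higher in A549, 5 higher in H460 and 7 not called (63.2% called against 16.6%, median log2 fold change 0.36). Of the 19 tested, 7 passed the filter in 1 line alone, and 5 of the 12 that passed it in both lines were called (range over the alternatives 5 to 9 and 3 to 5, median 0.05 to 0.81; with 1 H460 replicate left out 7 to 8 and 4 to 5, median 0.05 to 0.81). IL6, interleukin 6, was at 60.3, 72.9 and 108 FPKM in H460 and 2.31 FPKM in A549, 36-fold higher in H460 (log2 fold change -5.17, SE 0.59, adjusted p = 0.000269 by edgeR). CXCL8, the neutrophil chemokine interleukin 8, was at 74.5, 94.8 and 61 FPKM in H460 and 4.42 FPKM in A549, 17.8-fold higher in H460. IL11, which shares the receptor chain gp130 with interleukin 6, went the other way, at 0.0436, 0.0277 and 0.0314 FPKM in H460 and 22.2 FPKM in A549, 597-fold higher in A549. The monocyte chemokine CCL2 was at 17.6 FPKM in A549 and 0 in H460, at least 1076-fold higher in A549. CXCL5 was at 117, 77 and 31.4 FPKM in H460 and 96 FPKM in A549, within the H460 range, and was not called.

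Of 27 tested interferon-stimulated genes, 0 were higher in A549, 8 were higher in H460 and 19 were not called in 2D by edgeR (29.6% called against 16.6%), with a median log2 fold change of -0.86. In DESeq2, with no filter, without H460 replicate 3 and with the spread of all 10 libraries, 1 was higher in A549, and with both cultures in 1 fit 3 of 36 were higher in A549 and 4 were higher in H460. Of the 27 tested, 10 passed the filter in 1 line alone, and 5 of the 17 that passed it in both lines were called (range over the alternatives 0 to 3 and 4 to 11, median -0.94 to 0.42; with 1 H460 replicate left out 0 to 1 and 7 to 11, median -0.94 to -0.75). IFITM3, a membrane protein that blocks virus entry, was at 189.8, 222 and 302 FPKM in H460 and 16.3 FPKM in A549, 15.1-fold higher in H460 (log2 fold change -3.91, SE 0.52, adjusted p = 0.000675 by edgeR). IFI16, a nuclear DNA sensor, was at 30.1, 34.8 and 23.6 FPKM in H460 and 0.663 FPKM in A549, 38.7-fold higher in H460. IFI44L was at 5.86, 4.17 and 2.82 FPKM in H460 and 0.0172 FPKM in A549, 215-fold higher in H460. The H460 libraries did not overlap with A549 for any of these 3 genes. IFI6 was at 20.4, 23.5 and 17.4 FPKM in H460 and 3.38 FPKM in A549, and OAS1, a sensor of viral RNA, was at 76.1, 138 and 112 FPKM in H460 and 15.8 FPKM in A549. The calls of IFI6, OAS1 and IFI44 (adjusted p = 0.0607 by edgeR) were lost with both cultures in 1 fit, where the list's median log2 fold change was 0.42.

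Of 18 tested MHC genes, 2 were higher in A549, 4 were higher in H460 and 12 were not called (33.3% called against 16.6% over all genes tested, median log2 fold change -0.76), and 2 and 1 were called with both cultures in 1 fit. Of the 18 tested, 4 passed the filter in 1 line alone, and 4 of the 14 that passed it in both lines were called (range over the alternatives 1 to 2 and 1 to 7, median -0.92 to -0.42; with 1 H460 replicate left out 2 and 3 to 6, median -0.92 to -0.73). MICB, a stress ligand of natural killer cells, was at 1.36, 1.63 and 1.16 FPKM in H460 and 6.44 FPKM in A549, 4.58-fold higher in A549 (adjusted p = 0.00369 by edgeR). B2M, the light chain of class I molecules, was at 383, 519.7 and 368 FPKM in H460 and 197 FPKM in A549 and was not called (log2 fold change -1.14, SE 0.38, adjusted p = 0.0804 by edgeR).

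Cancer testis antigens, which are silent in most adult tissues, were on in different members. Of 38 genes, 6 were tested, and 4 were higher in A549 and 2 were higher in H460 (100% called against 16.6%, median log2 fold change 7.31, or 5.84 with genes at 0 in a line set at their bound). The 16.6% is not a like background here, since most of the 6 passed the filter in 1 line alone. Of the 6 tested, 5 passed the filter in 1 line alone, and the 1 that passed it in both lines was called (range over the alternatives 4 to 5 and 2, median 2.37 to 7.34; with 1 H460 replicate left out 4 and 2, median 7.28 to 7.34). MAGEA1 was at 60.9, 54.1 and 32.6 FPKM in H460 and had no count in A549, at least 2083-fold higher in H460. MAGEB2 was at 23.8, 24.5 and 11.4 FPKM in H460 and 0.0322 FPKM in A549, 586-fold higher in H460. In A549, XAGE1A and XAGE1B were at 45.7 and 39.2 FPKM and MAGEA6 at 5.1 FPKM, each with no count in H460. The copies of XAGE1 and the MAGEA genes are near-identical, so that reads may be split among them. PRAME, a repressor of retinoic acid signaling, was at 10.9, 11.9 and 10.2 FPKM in H460 and 51.7 FPKM in A549, 4.53-fold higher in A549 (adjusted p = 0.00068 by edgeR).

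Oncofetal and stemness genes had 8 of 14 tested higher in A549, 1 higher in H460 and 5 not called (64.3% called against 16.6%, median log2 fold change 1.24). Of the 14 tested, 6 passed the filter in 1 line alone, and 4 of the 8 that passed it in both lines were called (range over the alternatives 5 to 10 and 0 to 1, median 1.15 to 2.15; with 1 H460 replicate left out 5 to 8 and 1, median 1.15 to 1.30). LIN28B, which blocks maturation of let-7 microRNAs, was at 1.89 FPKM in A549 and had no count in H460, at least 849-fold higher in A549. HMGA2 and IGF2BP1, which are known as let-7 targets, were also higher in A549, and a link to LIN28B was not tested. HMGA2, a chromatin architecture protein, was at 0.539, 0.292 and 0.285 FPKM in H460 and 14.4 FPKM in A549, 40.8-fold higher in A549, and IGF2BP1, an mRNA-binding protein, was at 0.0359, 0.0216 and 0.0166 FPKM in H460 and 13.2 FPKM in A549, 497-fold higher in A549 (adjusted p = 2.13e-05 and 5.04e-06 by edgeR). The imprinted RNAs H19 and MEG3 were at 5.34 and 5.76 FPKM in A549, with no count in H460.

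Of 39 HOX genes, which set positions along the body axis, 20 were tested, and 5 were higher in A549, 3 were higher in H460 and 12 were not called (40% called against 16.6%). None of the 8 called passed the filter in both lines, so 16.6% is not a like background for this list. The median log2 fold change was -0.09 and became 1.15 with no filter, 0.75 with both cultures in 1 fit and 0.03 without H460 replicate 3. With both cultures in 1 fit 10 and 4 of 23 were called, with a filter on the mean FPKM 2 and 1 of 12, and by limma 6 and 0 on log2(FPKM + 1) and 3 and 2 on log2(FPKM + 0.1). Of the 20 tested, 12 passed the filter in 1 line alone, and 0 of the 8 that passed it in both lines were called (range over the alternatives 2 to 10 and 0 to 4, median -0.30 to 1.15; with 1 H460 replicate left out 3 to 6 and 3, median -0.08 to 0.03). HOXB8 was at 0.23, 0.409 and 0.148 FPKM in H460 and 4.49 FPKM in A549, 18.4-fold higher in A549 (adjusted p = 0.000298 by edgeR). HOXA9 was at 2.93, 3.0 and 1.21 FPKM in H460 and 0.0182 FPKM in A549, a ratio of 120 at equal depth (95% counting interval 40.9 to 583), and its call was lost in limma on log2(FPKM + 1).

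Of 13 tested neuroendocrine and neuronal genes, 5 were higher in A549, 2 were higher in H460 and 6 were not called (53.8% called against 16.6%, median log2 fold change 0.98). Without H460 replicate 2 and by limma on either scale 3 and 1 were called, and with no filter 3 and 1 of 22, with a median of -0.16. Of the 13 tested, 5 passed the filter in 1 line alone, and 3 of the 8 that passed it in both lines were called (range over the alternatives 3 to 5 and 1 to 2, median -0.16 to 1.11; with 1 H460 replicate left out 3 to 5 and 1 to 2, median 0.92 to 1.11). SNAP25, a vesicle fusion protein, was at 0.937, 0.575 and 0.556 FPKM in H460 and 13.8 FPKM in A549, 19.4-fold higher in A549, and CHGB, a granule protein, was at 0.0184, 0.0249 and 0.0354 FPKM in H460 and 3.02 FPKM in A549, 103-fold higher in A549 (adjusted p = 9.79e-05 and 7.51e-05 by edgeR). UCHL1, a ubiquitin hydrolase of neurons, was high in both lines, at 573, 547 and 452 FPKM in H460 and 385 FPKM in A549, and was not called (log2 fold change -0.47, SE 0.36, adjusted p = 0.451 by edgeR).

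Of 23 airway secretory and mucin genes, 5 were tested, 2 were higher in A549, 1 was higher in H460 and 2 were not called (60% called against 16.6%). Their median log2 fold change was 0.06, but -0.25 without H460 replicate 2 and -0.68 with a filter on the mean FPKM. With both cultures in 1 fit 10 and 0 of 14 were called with a median of 8.83, and with no filter 7 and 1 of 15 with a median of 5.11. Of the 5 tested, 4 passed the filter in 1 line alone, and the 1 that passed it in both lines was called (range over the alternatives 1 to 10 and 0 to 1, median -0.68 to 8.83; with 1 H460 replicate left out 2 and 1, median -0.25 to 0.80). MUC5AC, the gel-forming mucin of goblet cells, was at 0.123, 0.0215 and 0.472 FPKM in H460 and 24.1 FPKM in A549, 108-fold higher in A549 (log2 fold change 6.76, SE 1.10, adjusted p = 0.0022 by edgeR). The transmembrane mucin MUC13 was at 0, 0.00941 and 0 FPKM in H460 and 1.36 FPKM in A549, a ratio of 485 (95% counting interval 133 to 4026). AGR2, which folds mucins, was at 242, 345 and 175 FPKM in H460 and 62 FPKM in A549 and was called higher in H460, but with both cultures in 1 fit the value was 0.48 (adjusted p = 0.863 by edgeR), and limma lost the call.

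Of 28 tested serpins and proteases, 11 were higher in A549, 9 were higher in H460 and 8 were not called (71.4% called against 16.6%). Their median log2 fold change of -0.01 turned to positive values of 0.01 to 1.07 under 8 of 12 alternatives, among them 0.03 without H460 replicate 2 and 0.36 without replicate 3. Of the 28 tested, 12 passed the filter in 1 line alone, and 9 of the 16 that passed it in both lines were called (range over the alternatives 6 to 17 and 7 to 10, median -0.71 to 1.07; with 1 H460 replicate left out 10 to 12 and 8 to 9, median -0.19 to 0.36). Besides SERPINB2, SERPINB5, the serpin maspin, was at 43.6, 30.9 and 18.8 FPKM in H460 and had no count in A549, at least 1987-fold higher in H460. SERPINA6, which carries cortisol in blood, was at 2.63 FPKM in A549 and 0 in H460. The metalloproteinases MMP24 and MMP2 were higher in A549. MMP24 was at 0.0492, 0.0206 and 0 FPKM in H460 and 19.5 FPKM in A549, 785-fold higher in A549, and the gelatinase MMP2 was at 2.08 FPKM in A549 with no count in H460.

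Of 13 tested metallothionein and S100 genes, 3 were higher in A549, 3 were higher in H460 and 7 were not called (46.2% called against 16.6%). Their median log2 fold change was -0.09, but 0.05 without H460 replicate 3 and 0.27 with both cultures in 1 fit, where 3 and 1 of 14 were called. Of the 13 tested, 1 passed the filter in 1 line alone, and 5 of the 12 that passed it in both lines were called (range over the alternatives 2 to 3 and 1 to 3, median -0.35 to 0.27; with 1 H460 replicate left out 2 to 3 and 2 to 3, median -0.11 to 0.05). MT1A, a zinc-binding metallothionein with near-identical copies, was at 17.3, 17 and 17 FPKM in H460 and 2.62 FPKM in A549, 6.59-fold higher in H460 (adjusted p = 0.00647 by edgeR). S100A16, a calcium-binding protein, was at 11, 15.4 and 9.65 FPKM in H460 and 79.1 FPKM in A549, 6.06-fold higher in A549 (adjusted p = 0.000396 by edgeR). S100P was at 98.5, 73.8 and 92 FPKM in H460 and 7.53 FPKM in A549 and was called higher in H460, which was lost with both cultures in 1 fit (adjusted p = 0.345 by edgeR).

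Of 33 tested glycolysis and hypoxia genes, 7 were higher in A549, 5 were higher in H460 and 21 were not called (36.4% called against 16.6% over all genes tested, median log2 fold change 0.12), and 5 and 2 called without H460 replicate 2 and a median of -0.06 without replicate 1. Of the 33 tested, 2 passed the filter in 1 line alone, and 11 of the 31 that passed it in both lines were called (range over the alternatives 5 to 8 and 2 to 7, median -0.06 to 0.19; with 1 H460 replicate left out 5 to 8 and 2 to 6, median -0.06 to 0.12). GAPDH was at 5919, 6646 and 6149 FPKM in H460 and 5639 FPKM in A549 and ENO1 at 1692, 2044 and 1636 FPKM in H460 and 1437 FPKM in A549, and neither was called (adjusted p = 0.832 and 0.634 by edgeR). NDRG1, which is induced by low oxygen, was at 1.72, 2.54 and 2.17 FPKM in H460 and 72.7 FPKM in A549, 33-fold higher in A549 (log2 fold change 5.05, SE 0.33, adjusted p = 1.50e-05 by edgeR). The vasodilator peptide ADM was at 3.83, 4.34 and 4.17 FPKM in H460 and 64.1 FPKM in A549, and the carbonic anhydrase CA12 was at 14.1, 9.62 and 7.79 FPKM in H460 and 91.8 FPKM in A549, 15.2 and 8.32-fold higher in A549. SLC16A3, which exports lactate, went the other way, at 116, 116 and 87.7 FPKM in H460 and 18.2 FPKM in A549, 6.53-fold higher in H460.

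Of 25 tested lipid and cholesterol synthesis genes, 3 were higher in A549, 1 was higher in H460 and 21 were not called (16% called, near the 16.6% over all genes tested, median log2 fold change 0.21), and limma called none of the 25. All 25 passed the filter in both lines (range over the alternatives 0 to 3 and 0 to 2, median 0.11 to 0.27; with 1 H460 replicate left out 2 to 3 and 1, median 0.12 to 0.25). FADS2, a fatty acid desaturase, was at 12.2, 25.7 and 28.3 FPKM in H460 and 112 FPKM in A549, 4.9-fold higher in A549 (adjusted p = 0.00668 by edgeR). The stearoyl desaturase SCD was at 119, 147 and 139.6 FPKM in H460 and 162 FPKM in A549 and was not called. The apoptosis and stress response list, which holds BAX and DDB2, had 25 tested genes. Of these, 5 were higher in A549, 1 was higher in H460 and 19 were not called. This is 24% called against 16.6%, with a median log2 fold change of 0.56. Without H460 replicate 2, 1 and 0 were called, and 2 and 1 by limma, with no filter or both cultures in 1 fit. All 25 passed the filter in both lines. The range over the alternatives was 1 to 6 and 0 to 1, median 0.41 to 0.62.

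No cell cycle or replication gene was called among 35 tested by edgeR, against 16.6% over all genes tested. An unadjusted p under 0.05 was found for 1, against 28.3% over all genes tested, and 0 were called by DESeq2 or limma. All 35 passed the filter in both lines. The median log2 fold change was 0.10, or -0.18 with both cultures in 1 fit. Over the alternatives 0 and 0 were called, with a median of -0.18 to 0.21, and of 0 to 0.21 with 1 H460 replicate left out. PCNA, the sliding clamp of DNA polymerases, was at 218, 222 and 129 FPKM in H460 and 246 FPKM in A549 (log2 fold change 0.36, SE 0.37, adjusted p = 0.591 by edgeR). None of 13 mitochondrially encoded genes was called by edgeR, against 16.6% over all genes tested. Of the 13, 0 had an unadjusted p under 0.05 and 0 were called by DESeq2 or limma. Over the alternatives 0 and 0 were called. The median log2 fold change was 0.22, with a range of 0.02 to 0.75 over the alternatives and 0.02 to 0.75 with 1 H460 replicate left out. All 13 mitochondrially encoded genes passed the filter in both lines. They took 5.13%, 4.47% and 8.85% of the counts in H460 and 7.51% in A549, so A549 lay within the H460 range. COX1, a subunit of cytochrome c oxidase and the gene with the most counts in each of these libraries, was at 8258, 7857 and 12670 FPKM in H460 and 11503 FPKM in A549.

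**Figure D2:**
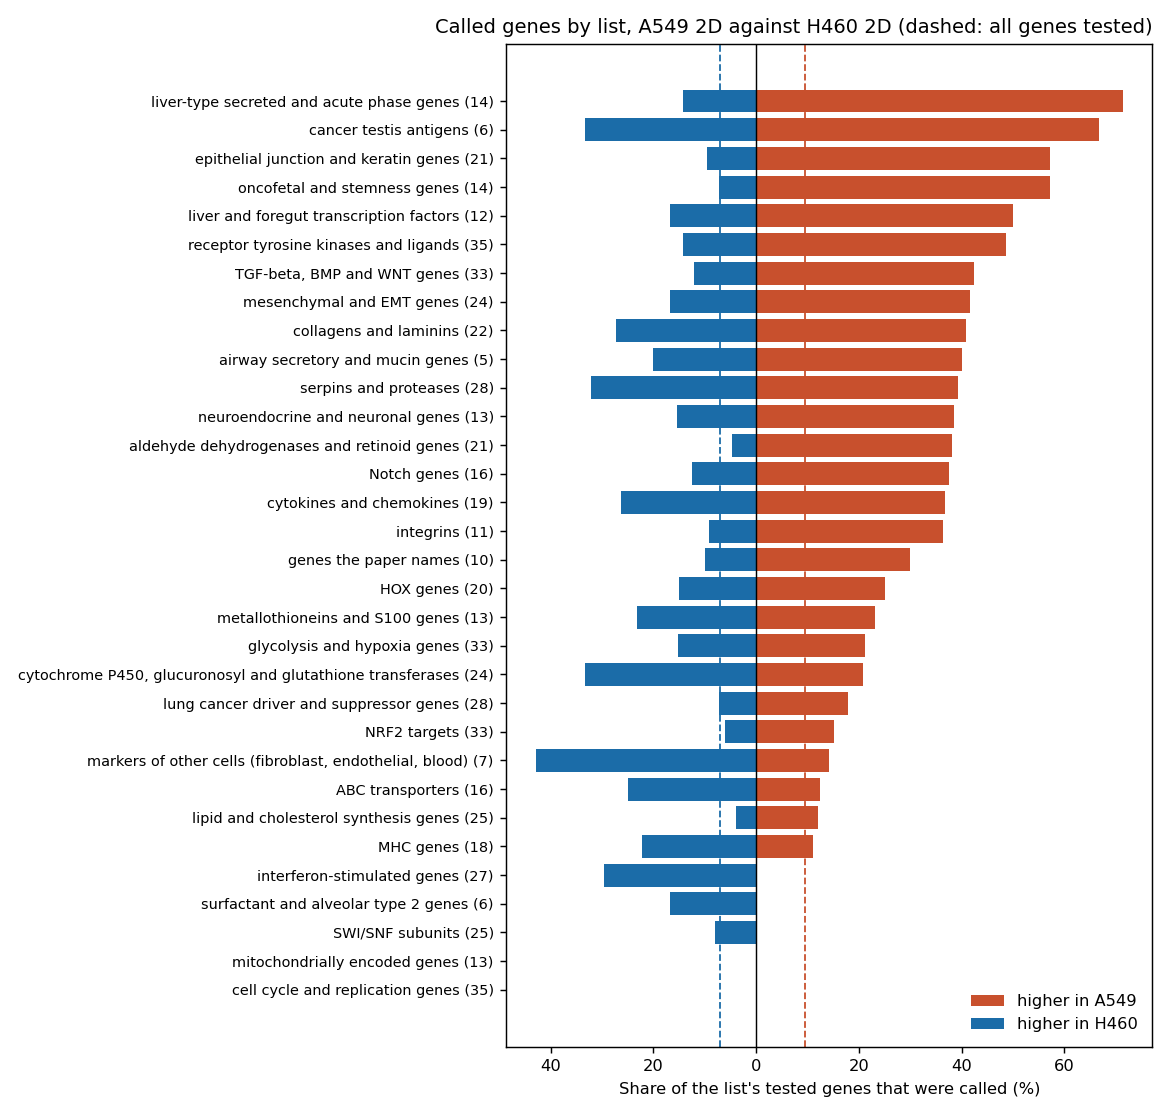
Share of the tested genes of each gene list shown that were DEGs (x axis, percent of the list's tested genes, number tested in parentheses), red to the right for higher in A549 and blue to the left for higher in H460. Dashed lines mark the shares over all genes tested, 9.58% and 6.99%, and the liver-type list lies at 10 of 14 genes higher in A549, while the cell cycle and mitochondrial lists hold none. These shares mix genes that passed the filter in both lines with genes that passed it in a single line.

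Of 13 genes that the study names, 10 were tested, and 3 were higher in A549, 1 (SMARCA4) was higher in H460 and 6 were not called (40% called against 16.6%, median log2 fold change 1.03), with 1 and 1 called without H460 replicate 2 and 0 and 1 by limma on log2(FPKM + 0.1). Of the 10 tested, 1 passed the filter in 1 line alone, and 3 of the 9 that passed it in both lines were called (range over the alternatives 0 to 5 and 1, median 0.84 to 1.28; with 1 H460 replicate left out 1 to 5 and 1, median 0.84 to 1.28). SEZ6L2, a transmembrane protein of the SEZ6 family, was at 3.21, 2.1 and 4.54 FPKM in H460 and 7.34 FPKM in A549. A549 was above each H460 library, but SEZ6L2 was not called (log2 fold change 1.08, SE 0.46, adjusted p = 0.161 by edgeR). SEZ6 and SEZ6L, the other members of the family, had no count in any of the 4 libraries. The membrane-binding protein ANXA2 was at 376, 544 and 595 FPKM in H460 and 1237 FPKM in A549, 2.66-fold higher in A549, which was lost in limma and without H460 replicate 1 (adjusted p = 0.0525) or 2 (adjusted p = 0.0513 by edgeR). The Notch ligand JAG2 was at 0.795, 0.906 and 1.87 FPKM in H460 and 5.99 FPKM in A549, 4.77-fold higher in A549, which was lost without H460 replicate 2 (adjusted p = 0.061 by edgeR) and by limma on log2(FPKM + 0.1). STC1, a secreted glycoprotein, was at 0.128, 0.838 and 0.483 FPKM in H460 and 3.27 FPKM in A549, 6.65-fold higher in A549, which was lost without H460 replicate 3 (adjusted p = 0.0644 by edgeR), with no filter, by limma on log2(FPKM + 0.1) and with both cultures in 1 fit. TGFB1 and PAF1 were at 33.2 and 37 FPKM in A549, above each H460 library, and were not called (adjusted p = 0.0656 and 0.0821 by edgeR).

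Not every call held. Of the 198 DEGs among the genes picked by rule, 131 were DEGs in each of the 12 alternatives that tested them and 67 lost the call in at least 1, 29 of them higher in A549 and 38 higher in H460. Most of the 67 that are not described above are named here. Without H460 replicate 2 the calls lost were, among genes higher in A549, the transporter ABCC4, the lipogenic enzyme ACLY, the apoptosis and stress response genes BAX, DDB2, FDXR and PHLDA3, cyclin D1 (CCND1), the hyaluronan receptor CD44, DLL3, ENO2, the receptor ERBB3, HEYL, LFNG, HMGA1, heme oxygenase HMOX1 and metallothionein MT1F. Among genes higher in H460 they were CCNG1, HLA-F, LUM, S100A4, SCG2, SOX9 and the metalloproteinase inhibitor TIMP1. Their adjusted p without replicate 2 ran from 0.0522 (SCG2) to 0.155 (MT1F) by edgeR. CD44 (adjusted p = 0.0684) and DDB2 (0.0721) were also lost without replicate 1, and ACLY (0.0511), BAX (0.0552), HMOX1 (0.0531) and LUM (0.0792) without replicate 3 by edgeR.

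Other calls were lost in other ways. With both cultures in 1 fit the calls of ABCA8, EPHX1, HLA-B, MAML2, the collagenase MMP1 and NLRC5, higher in H460 in 2D, and of HMGCS1, higher in A549, were lost. DESeq2 lost DDC, HLA-DMB, IL32, MST1R and PDGFB, all higher in A549 by edgeR. Limma lost ABCC9, ALDH1L2, CTSL, HK2, HOXA11, HOXD13, IL1A, KLF4, PDGFRB and STARD4, higher in H460, and S100A3, higher in A549.

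The TS libraries gave the same line contrast in other culture, with 1 library for each line and therefore no replicate check and no test of this pair alone. On the log2(FPKM + 1) scale, 3352 of 12935 genes that passed the filter (25.9%) were more than 2-fold apart, 1989 (15.4%) higher in A549 TS cells and 1363 (10.5%) higher in H460 TS cells. Of the 1251 genes higher in A549 in 2D, 865 were also more than 2-fold higher in A549 TS cells, which is 69.1% of the 2D list and 43.5% of the TS list, 381 were within 2-fold and 5 went the opposite way. Of the 913 genes higher in H460 in 2D, 538 were also more than 2-fold higher in H460 TS cells, which is 58.9% of the 2D list and 39.5% of the TS list, 356 were within 2-fold and 19 went the opposite way. CYP24A1 was at 0 FPKM in H460 TS cells and 80 FPKM in A549 TS cells, and HNF4A was at 0 and 6.93 FPKM. TBXT was at 397 FPKM in H460 TS cells and 0 in A549 TS cells, and SMARCA4 was at 29.4 and 1.66 FPKM. For these 4 genes the TS libraries lay on the same side as the 2D libraries.

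With culture as a covariate over the 6 libraries of both lines in 2D and TS, edgeR called 2879 of 13660 genes (21.1%), 1803 (13.2%) higher in A549 and 1076 (7.88%) higher in H460. KRT7 had a log2 fold change of 7.11 (adjusted p = 0.00115) and CDH11 of -12.23 (adjusted p = 9.78e-05) in this edgeR fit, which shares its 2D libraries with the fit above. An edgeR test of the difference between the cultures called 100 of 13660 genes (0.732%). In this fit 3 of the 4 groups hold 1 library each, so all spread comes from the 3 H460 2D libraries, and the other 3 libraries are assumed to vary as these do. AXL was among them, at 0.040 FPKM in H460 TS cells and 18.3 FPKM in A549 TS cells against 4.87, 4.95 and 7.33 FPKM in H460 2D and 75.8 FPKM in A549 2D. It was lower in the TS library of either line than in its 2D libraries, and the line difference was larger in TS.

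**Figure D3:**
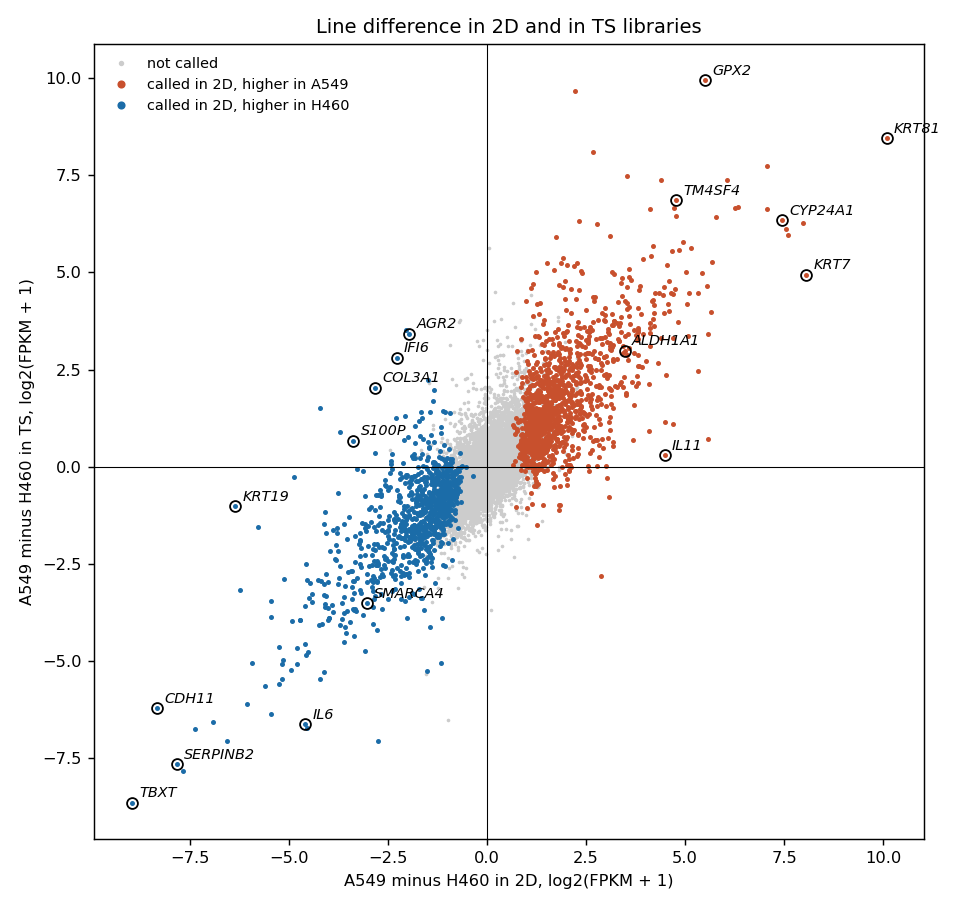
Line difference (A549 minus H460, log2(FPKM + 1)) of the tested genes in 2D (x axis, mean of 3 H460 libraries) and in TS (y axis, 1 library per line), with DEGs of the 2D comparison in color and circled genes named. KRT81, KRT7 and CYP24A1 lie at the upper right and TBXT, SERPINB2 and CDH11 at the lower left, while AGR2, IFI6 and COL3A1 lie left of 0 in 2D and above 0 in TS.

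Differences were also summed up by chromosome, a view chosen after the data were seen and given without a test. Over all genes tested, 16.6% were called, 9.58% higher in A549 and 6.99% higher in H460. The median log2 fold change was -0.66 over 637 tested genes of chromosome 5, where 45 were higher in A549 and 103 in H460 (23.2% called). It was -0.35 on chromosome 1, -0.30 on X and -0.26 on chromosome 4. On chromosome 8 the median was 0.48, with 66 of 448 tested genes higher in A549 and 30 higher in H460 (21.4% called). On chromosome 19 it was 0.39, with 129 of 812 higher in A549 and 22 higher in H460 (18.6% called). Chromosomes 11, 15 and 17 had medians of 0.39, 0.39 and 0.31. Between the TS libraries the median on the log2(FPKM + 1) scale was -0.48 for chromosome 5 and 0.38 for chromosome 8, while chromosome 14 was at -0.19 in 2D and 0.28 in TS and chromosome 22 at 0.05 and -0.08. Copy number was not measured.

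**Figure D4:**
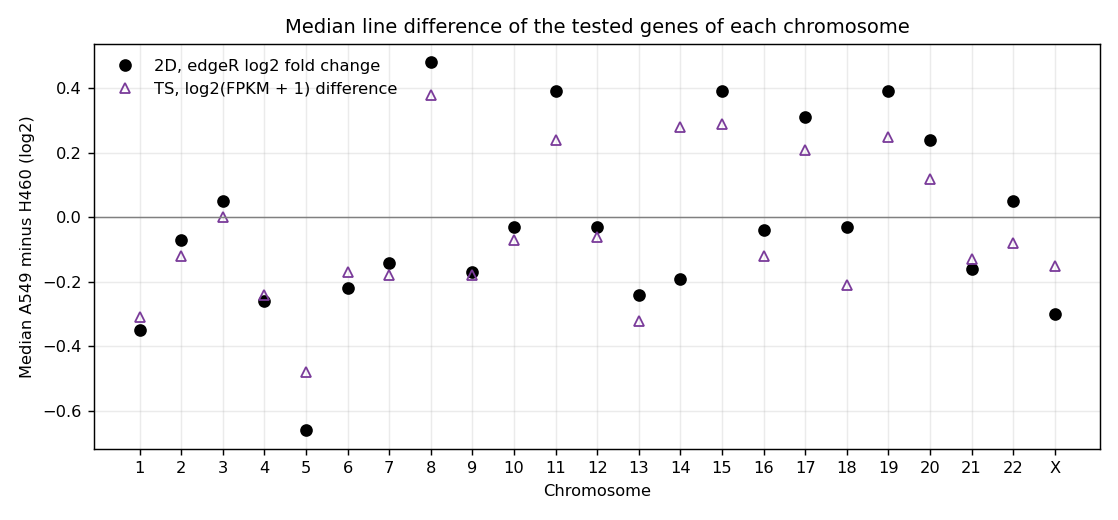
Median line difference (y axis, log2, A549 minus H460) of the tested genes of each chromosome (x axis) in 2D (black circles, edgeR log2 fold change) and TS (open triangles, log2(FPKM + 1) difference). Chromosome 5 is lowest at -0.66 in 2D and -0.48 in TS, and chromosome 8 is highest at 0.48 and 0.38.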

How the data were processed

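RNA sequencing of 10 libraries was analysed from a table deposited by the authors. For each gene it gives whole-number counts labelled as read counts, which were used for testing, and the deposited FPKM, which were used for levels, while the deposited TPM were read but not used. Per the submitters' processing notes, reads were made with bcl2fastq 1.8.4, trimmed with Trimmomatic, aligned with HISAT2 2.1.0 to GRCh38 and quantified with StringTie 2.1.3b. How the counts were made from this output is not stated, and floors, fold changes given as "at least" and intervals take them as counts of reads. Strand handling is not given in the sources used here, so reads of overlapping and antisense genes cannot be told apart, and reads of near-identical copies may be split. Of 46427 genes, 44698 were matched by Gene ID to RefSeq (GRCh38.p14).

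Groups were taken from the labels. The titles of the TS libraries read CTC, and they were taken as TS by their culture. Genes with at least 1 FPKM and 10 counts in 1 library were tested with edgeR 4.0.16 in R 4.3.3 (TMM, quasi-likelihood test, 2 residual degrees of freedom, common dispersion 0.0875), 3 H460 2D libraries against 1 A549 2D library, with Benjamini-Hochberg adjustment over all genes tested. A call needed an adjusted p under 0.05 and more than 2-fold. The same test was run on 6 libraries with culture as covariate (3 residual degrees of freedom) and with a term for the difference between cultures (2 residual degrees of freedom, all from the H460 2D libraries). The TS pair was compared by log2(FPKM + 1) without a test. Alternatives were RLE and upper-quartile scaling, DESeq2 1.42.0, limma 3.58.1 on log2(FPKM + 1) and log2(FPKM + 0.1), other filters and thresholds, each H460 2D replicate left out, and the spread of all 10 libraries. The code was tested on simulated data. Total counts of 64454873 to 73644667 put the floor of 3 counts at 0.0465 CPM (counts scaled to depth) in A549 and 0.0141 CPM over the H460 libraries. Counting intervals are exact binomial at 95%. Tables and figures were made in Python 3.11.15 with numpy 2.4.6, pandas 2.3.3, scipy 1.17.1 and matplotlib 3.10.9.

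Genes were named by rule: the 15 called genes at each end with a mean of at least 10 FPKM in the higher line, up to 6 called members and the 2 most abundant members of each of 33 gene lists, lineage markers, genes named in the study and the 10 most abundant genes of each line. The text names all but 3 of those that were called and lost the call in an alternative, and a part of the others, chosen after their values were seen. For each list the range over all 12 alternatives is given, in which the number tested varies with filter and fit, and alternatives are named where they moved the number of called genes by more than 1.5 times or turned the sign of the median. Members and lists were chosen with earlier results of these data known. The summary by chromosome and CDKN2A were added after the data were seen.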

Additional observations from a re-analysis of the deposited data

Results flagged for a closer look

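The difference between the lines was tested between cultures as an edgeR interaction over 6 libraries, with 2 residual degrees of freedom, both from the 3 H460 2D libraries, since A549 2D and the TS groups hold 1 library each and are assumed to vary as H460 2D does, and Benjamini-Hochberg adjustment over 13660 genes. A positive value means that A549 minus H460 was higher in TS than in 2D. Of the genes named in the report, the following had an adjusted p under 0.05. The interaction was 5.52 for AGR2 (adjusted p = 0.0191), 5.13 for AXL (0.0267) and 6.18 for COL3A1 (0.0189) on the log2 scale. It was 5.75 for IFI44 (adjusted p = 0.0201), 5.56 for IFI6 (0.0107), 5.76 for KRT19 (0.0107) and 4.30 for S100P (0.0206), and -6.59 for IL11 (0.0201).

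AGR2 was at 242, 345 and 175 FPKM in the H460 2D libraries, 62 in A549 2D, 122 in H460 TS and 1322 in A549 TS. COL3A1 was at 13.7, 21.3 and 26.5 FPKM in H460 2D, 1.95 in A549 2D, 1.3 in H460 TS and 8.42 in A549 TS. IFI6 had the opposite order to 2D, with 10.8 FPKM in H460 TS and 81.7 FPKM in A549 TS. IFI44 was at 11.8, 20.8 and 11.8 FPKM in H460 2D, 0.0381 in A549 2D, 8.81 in H460 TS and 2.17 in A549 TS. S100P was at 74.4 FPKM in H460 TS and 119 FPKM in A549 TS. IL11 was at 0.0453 FPKM in H460 TS and 0.284 FPKM in A549 TS.

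For 3 further genes 1 line had no count in 2D, so the value is the counting bound from a floor of 3 counts rather than the fitted value. The interaction was -7.94 or lower for FGA (adjusted p = 0.0139), with 4.5 FPKM in H460 TS and 40.7 FPKM in A549 TS. It was -6.76 or lower for TNS4 (adjusted p = 0.0221), with 0.0957 FPKM in H460 TS and 3.85 FPKM in A549 TS. It was 4.96 or higher for SERPINB5 (adjusted p = 0.032), with 19.2 FPKM in H460 TS and 0.297 FPKM in A549 TS.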

How the results depend on the processing

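Most alternatives gave a number of DEGs within 1.5 times of 2164. RLE scaling gave 2145, upper-quartile scaling 2108, DESeq2 2603, limma on log2(FPKM + 0.1) 1528, no filter 2513, a filter on the mean FPKM 1660 and the spread of all 10 libraries 2530. Limma on log2(FPKM + 1) gave 1408, with 67.9% of the DEGs higher in A549 against 57.8%, and the cause was not tested. Leaving out 1 H460 2D replicate gave 1499 to 2579. Without a test, 2474 genes were more than 2-fold from the H460 mean and 1770 from every H460 library, 1699 of them also DEGs. With culture as covariate 2879 genes were called, 2869 with RLE scaling and 2077 to 2822 without 1 replicate. No paired analysis was made, since A549 2D has a single library and no label pairs it with an H460 library.

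Of the 272 genes picked by rule, 249 were tested and 198 called, and 131 of these were called in every alternative that tested them. Calls were lost most often by limma on log2(FPKM + 1), for 44 genes, and by limma on log2(FPKM + 0.1), for 34. They were also lost without H460 replicate 2 for 28, with culture as covariate for 29 and with no filter for 23. Of 51 genes not called, 13 were called in at least 1 alternative. The sign changed in at least 1 alternative for 19 of the 249, of which 2 were called, among them AGR2, at 0.48 on the log2 scale with culture as covariate. ABCA3, not called, was at -0.03 to 1.05 with 1 H460 2D replicate left out. Other genes not called whose sign changed are left unnamed in the report.

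The A549 2D group had 1 library, whose own spread was not measured, so every test takes the spread of H460. A count of 0 in A549 allows a level of up to 0.0465 CPM, by counting error alone.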

Other observations

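GPX2 and H19, both at 0 counts in the H460 2D libraries, were far apart between the A549 libraries, and this pair was picked after the values were seen. GPX2 was at 44.8 FPKM in A549 2D and 1045 FPKM in A549 TS, and H19 was at 5.34 FPKM in A549 2D and 279 FPKM in A549 TS, each with 1 library. In the H460 TS library GPX2 was at 0.0637 FPKM and H19 at 0.0327 FPKM.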
